A study of Homo sapiens with 18 samples.

Results

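The 36 genes described here encode the enzymes of base excision repair (20 genes) and nucleotide excision repair (16 genes), chosen by name from the 56269 genes for which expression was measured, and all 36 were among the 13686 genes tested. Their transcripts were measured by RNA-seq in IMR90 cells, a line of human lung fibroblasts, in 6 groups of 3 replicates each (18 libraries). Cells were given, for 6 h, PBS or 20 μg/ml of hyaluronan (HA) made by naked mole-rat skin fibroblasts (NSF). The HA was either intact (cNSF-HA, heated with inactivated hyaluronidase) or partly cut by the active enzyme (fNSF-HA). The groups without tBHP (tert-butyl hydroperoxide, an oxidant) were collected after that incubation. For the other groups the HA was taken off after the incubation, before 200 μM tBHP was given for 1 h. They were collected 6 h after tBHP was added. So tBHP itself, the removal of HA in the HA groups and the later time of collection cannot be told apart. The study's methods call all replicates biological without saying what was separate between them, and p-values measure the spread between these libraries.

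Base excision repair removes single damaged bases, such as oxidized guanine or uracil in DNA. A glycosylase cuts the base from its sugar, an AP endonuclease opens the strand at the empty site, and a polymerase and a ligase fill and seal the gap while PARP enzymes mark the break. Nucleotide excision repair removes bulky lesions, such as those made by ultraviolet light, as a short piece of single strand. XPC and the DDB proteins, or a stalled RNA polymerase with the help of ERCC6 and ERCC8, find the lesion. The TFIIH complex opens the strands, and ERCC1-ERCC4 and ERCC5 cut the piece out. Alkyl hydroperoxides oxidize bases and break strands, lesions that fall mainly to base excision repair.

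Values are normalized counts, that is, reads on a gene after division by a size factor that DESeq2 estimated for each library. Changes are differences of log2(value + 1) with their standard error (SE). A gene is called changed where limma, fitted over all 13686 genes, gave a Benjamini-Hochberg adjusted p under 0.05. The libraries held 20261103 to 26287660 reads on genes, and replicates of a group without tBHP had a median SD of 0.0761 (log2) against 0.206 with tBHP. Among the 7 fibroblast markers none had a mean under 10, whereas all 4 epithelial, all 3 leukocyte and 2 of 3 endothelial markers did. The endothelial markers PECAM1 and CDH5 were at 0 in all but 1 library, and the third, VWF, had a mean of 6.81 in PBS cells without tBHP and 18.5 with it and was called up there (1.32). Of the fibroblast markers, LUM (-1.33), COL3A1 (-0.34) and DCN (-0.26) fell and PDGFRB (0.60) rose in PBS cells with tBHP, and their part in the results below was not tested. HMOX1, a heme-degrading enzyme induced by oxidants, rose in PBS cells by 2.96 on the log2 scale, and the p53 target CDKN1A by 3.06. The third gene of this check, SRXN1, which restores oxidized peroxiredoxins, rose by 2.35 in PBS and 0.86 in fNSF-HA cells and had a change of 0.67 (limma adjusted p 0.0546) in cNSF-HA cells. Its cNSF-HA and fNSF-HA responses differed from that in PBS cells by -1.68 and -1.49 (adjusted p 0.999 and 0.667). The libraries with tBHP also differed in how transcripts of high GC content were represented. For the decile of genes with the highest GC, the median log2 deviation from the mean of the 9 tBHP libraries was -0.80 in fNSF-HA replicate 2 and -0.20 in fNSF-HA replicate 1. It lay between -0.021 and 0.34 in the other 7. These values stand beside the repair genes because the median GC content of their longest transcripts was 52.3% in base excision repair and 43.5% in nucleotide excision repair, against 48.3% over all genes tested.

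In PBS cells, 21 of the 36 genes were called after tBHP, 10 of them up and 11 down, and of all genes tested 51.1% were called (24.2% up and 26.9% down). The largest rises were those of DDB2 and XPC, which find lesions for nucleotide excision repair, and the largest falls were those of UNG, the uracil glycosylase, and XPA, which verifies the lesion before incision. In base excision repair, 4 genes rose (MUTYH, SMUG1, APEX2, APTX), 4 fell (NEIL3, UNG, TDG, PARP1) and 12 of 20 were not called. The number called there was 12 when PBS cells with and without tBHP were fitted alone (55.9% of all genes) and 11 with edgeR (53.2%). In nucleotide excision repair, 6 rose (XPC, DDB1, DDB2, ERCC3, ERCC5, POLH), 7 fell (RAD23B, ERCC6, ERCC8, ERCC2, GTF2H1, GTF2H3, XPA) and 3 of 16 were not called. The median log2 change was 0.12 over the 20 genes, -0.25 over the 16 and 0.0043 over all genes tested. Changes ran from -1.14 to 0.60 in base and from -1.09 to 1.39 in nucleotide excision repair. The values with and without tBHP did not overlap for 15 of the 20 and for 16 of the 16 genes, against 63.8% of all genes. In cNSF-HA cells it was 15 and 13 genes (63.7% of all genes) and in fNSF-HA cells 8 and 12 (48.7%). In bulk RNA, fewer cells with a transcript and less RNA per cell cannot be told apart.

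The share of genes called was larger in nucleotide than in base excision repair with the deposited scaling, but not when the trend of each library with GC content and transcript length was removed. With both removed together, 8 of the 16 nucleotide and 11 of the 20 base excision repair genes were called in PBS cells, against 58.0% of all genes, and the medians of both sets were close to 0 (-0.021 and -0.037). That step also takes out any part of the tBHP response that follows GC content or length. Over the 3 pre-incubations it ended 22 of the members' 61 calls and added 15. The 8 called genes with the largest changes in PBS cells (DDB2, XPC, ERCC5, UNG, XPA, ERCC8, TDG and NEIL3) were called with and without the trend, but the falls of TDG (from -0.67 to -0.29), NEIL3 (from -0.63 to -0.34) and ERCC8 (from -0.77 to -0.36) became smaller. GTF2H1 went from -0.41 to -0.020 and GTF2H3 from -0.42 to -0.022, and both lost their calls. Of 8 markers of cycling cells, 6 fell in PBS cells beside UNG and NEIL3, which are known to be expressed more in dividing cells. The summed level of these markers was 47457 to 49061 in libraries without tBHP and 26813 to 32633 with it, and their part in these results was not tested.

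**Figure D1:**
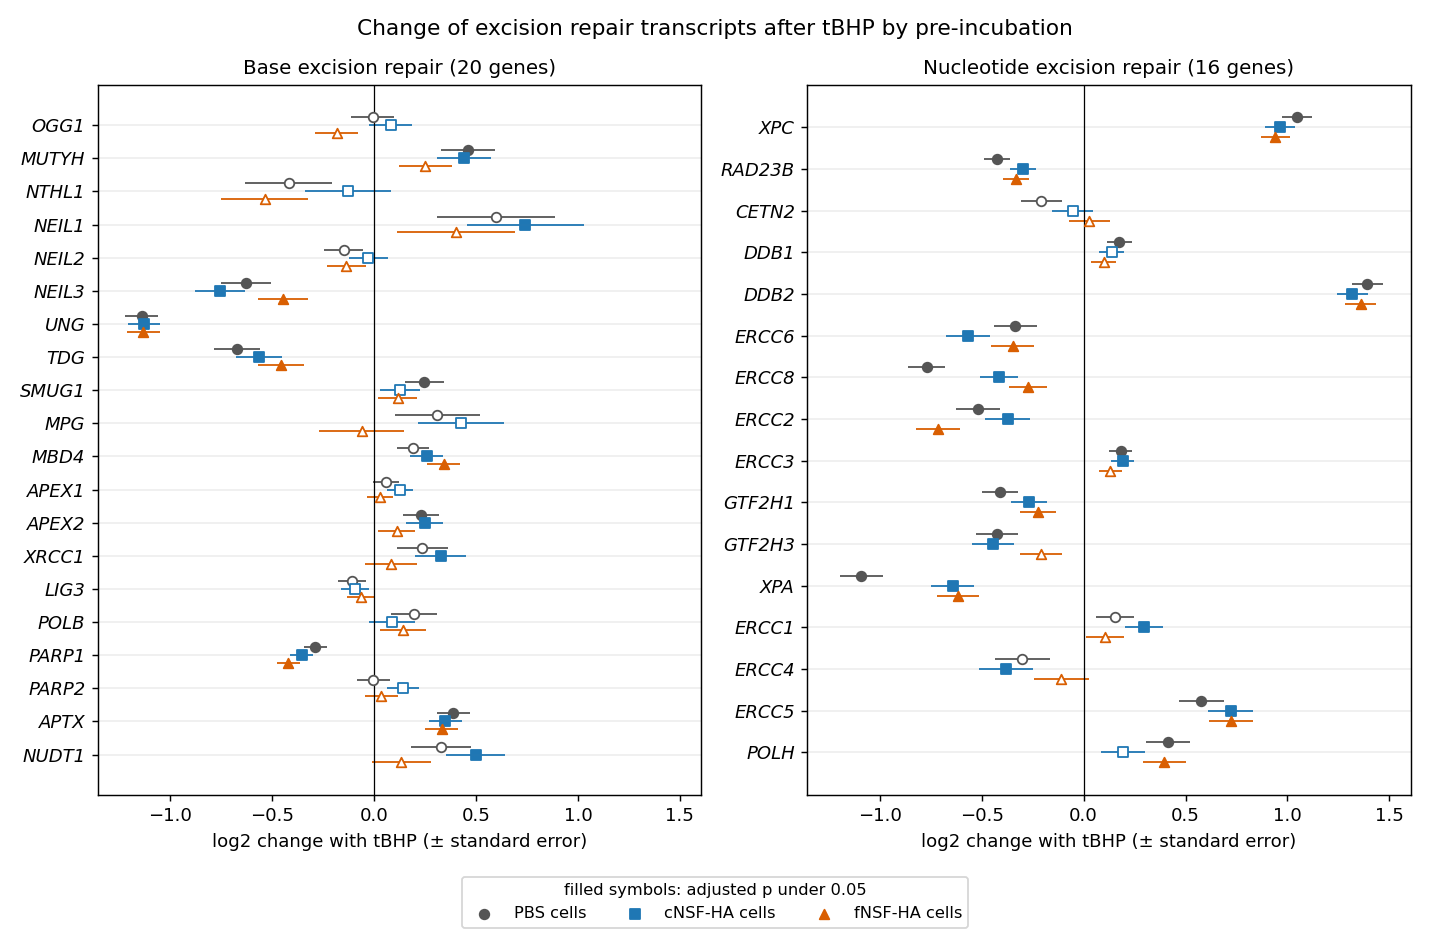
Log2 change with tBHP (x axis, log2 scale) of the 20 base excision repair genes (left) and the 16 nucleotide excision repair genes (right) in cells given PBS (circles), cNSF-HA (squares) or fNSF-HA (triangles); bars are standard errors and filled symbols have an adjusted p under 0.05. DDB2 and XPC lie between 0.94 and 1.39 in all pre-incubations and UNG between -1.14 and -1.13.

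DDB2, the lesion-binding subunit of the UV-DDB complex and a known p53 target, had the largest change of all 36 genes. Its normalized counts in PBS cells were 635, 594 and 612 without tBHP and 1579, 1647 and 1615 with it. The mean rose from 614 ± 20.5 (SD, n = 3) to 1614 ± 34.4 (SD, n = 3), a log2 change of 1.39 (SE 0.0767, limma adjusted p 1.36e-10). With cNSF-HA, DDB2 read 646, 601 and 678 without tBHP and 1568, 1560.4 and 1675 with it. With fNSF-HA, DDB2 read 637, 548 and 642 without tBHP and 1585, 1454 and 1643 with it. Every library with tBHP lay above every library without it. The log2 changes with cNSF-HA and fNSF-HA were 1.32 and 1.36, and their differences from the change in PBS cells had 95% intervals of -0.30 to 0.15 and -0.26 to 0.19. XPC, the sensor of distorted helices in the rest of the genome, read 1001, 983 and 1063 without tBHP and 2155, 2025 and 2126 with it in PBS cells. With cNSF-HA, XPC read 1080.1, 1035 and 1020.4 without tBHP and 2152, 2155 and 1831 with it. With fNSF-HA, XPC read 1041, 1005 and 1091 without tBHP and 2084, 1878 and 2068 with it. It rose by 1.05 (SE 0.0734), 0.96 and 0.94 on the log2 scale (limma adjusted p 3.23e-09, 1.08e-08 and 1.45e-08), with no overlap between libraries with and without tBHP.

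The DNA at the start of 4 of these genes is shown because they were the members with the largest changes in each direction, DDB2 and XPC up and UNG and XPA down. The sequences are from RefSeq (GRCh38.p14), whose table gave a window from 250 bases before to 50 bases after a start for 33 of the 36 genes. DDB2 (gene at chr11:47214465-47239240, + strand, GENCODE 29 on GRCh38) holds 2 p53 half-sites, in capitals and separated by 1 base. They lie within the 30 bases that follow its second RefSeq start (chr11:47214974-47215003, + strand).
DDB2: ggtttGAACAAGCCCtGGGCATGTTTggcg
All motifs here were searched on both strands. Such a pair of half-sites with a spacer of 0 to 13 bases occurred in 10 of 34943 windows (0.0368% of genes), and DDB2 was the only member to hold one. A half-site, which any pair contains, occurred in 6.64% of windows (8.08% of genes) and in the members DDB2, NUDT1 and UNG. XPC (chr3:14145147-14178783, - strand) holds TGACNNNGC, in capitals, in the 150 bases before its start (chr3:14178602-14178751, - strand).
XPC: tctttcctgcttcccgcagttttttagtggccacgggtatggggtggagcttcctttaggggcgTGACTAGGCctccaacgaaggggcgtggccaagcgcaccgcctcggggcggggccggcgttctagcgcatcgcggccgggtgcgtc
TGACNNNGC, the core of the antioxidant response element, was found in 13.3% of windows, in 16.1% of genes with a window and in 8 of the 33 members. UNG (chr12:109097574-109110992, + strand) holds CCAAT, the box bound by NF-Y, 3 times (in capitals) in the 200 bases before its second RefSeq start (chr12:109097972-109098171, + strand).
UNG: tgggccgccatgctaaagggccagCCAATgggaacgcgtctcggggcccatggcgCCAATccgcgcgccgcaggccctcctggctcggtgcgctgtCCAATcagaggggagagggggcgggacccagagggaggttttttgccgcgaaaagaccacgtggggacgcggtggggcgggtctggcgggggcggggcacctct
CCAAT was found in 34.6% of windows, in 39.8% of genes and in 19 of the 33 members. XPA (chr9:97674909-97697357, - strand) holds the NRF1 motif, on the opposite strand and in capitals, in the 150 bases before its start (chr9:97697341-97697490, - strand).
XPA: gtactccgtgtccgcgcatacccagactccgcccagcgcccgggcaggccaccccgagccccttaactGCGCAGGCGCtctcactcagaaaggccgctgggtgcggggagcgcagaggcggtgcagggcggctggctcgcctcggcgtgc
The NRF1 motif was found in 1396 windows (4.87% of genes) and in 5 members, ERCC6, LIG3, MPG, NEIL3 and XPA. A match describes letters in the sequence and says nothing of binding in these cells.

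Of the other 3 proteins that find lesions, RAD23B fell in each pre-incubation, DDB1 rose in PBS cells and CETN2 was not called. DDB1, the partner of DDB2, rose by 0.18 (SE 0.0626, limma adjusted p 0.0258) in PBS cells. The call was lost without PBS replicate 1 (0.0687) or 3 (0.0755), without PBS replicate 1 with tBHP (0.0993) and under quantile normalization (0.181). With the GC and length trend removed the change of DDB1 was -0.023. RAD23B, which stabilizes XPC, changed in PBS, cNSF-HA and fNSF-HA cells by -0.42, -0.30 and -0.33 (SE 0.0641). With the GC and length trend removed these were -0.20, -0.071 and -0.24, and the cNSF-HA call was lost (adjusted p 0.182). CETN2, the third subunit of the XPC complex, had changes of -0.21, -0.05 and 0.03 (SE 0.0994).

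Both factors of transcription-coupled repair fell in the 3 pre-incubations. ERCC8 (CSA) read 267, 300.5 and 239.5 without tBHP and 153, 163 and 153 with it in PBS cells. With cNSF-HA, ERCC8 read 234, 251 and 229.5 without tBHP and 179, 175 and 181 with it. With fNSF-HA, ERCC8 read 271, 262 and 252 without tBHP and 213, 211 and 224 with it. Its log2 changes were -0.77, -0.42 and -0.27 (SE 0.0925, limma adjusted p 2.35e-06, 0.00118 and 0.0236), and in each pre-incubation the libraries with tBHP lay below those without. The call of ERCC8 in fNSF-HA cells was lost when fNSF-HA replicate 1 (adjusted p 0.0826) or 2 (0.0614) or the tBHP library of fNSF-HA replicate 1 (0.0641) was left out, with edgeR (0.0647), with quantile normalization (0.0924) and with the compared groups alone (0.0613). With the GC and length trend removed, its changes in cNSF-HA and fNSF-HA cells were -0.13 and -0.11 and not called. ERCC6 (CSB), the remodeler that recruits ERCC8, read 448, 401 and 435 without tBHP and 334, 369 and 316 with it in PBS cells. With cNSF-HA, ERCC6 read 459, 441 and 454 without tBHP and 326, 329.7 and 262 with it. With fNSF-HA, ERCC6 read 413, 483 and 393 without tBHP and 311, 370.2 and 329 with it. It fell in the 3 pre-incubations (-0.33, -0.57 and -0.35, SE 0.106) with limma adjusted p of 0.0141, 0.000269 and 0.0135, and no tBHP library reached the lowest without tBHP of its pre-incubation. The PBS call of ERCC6 was lost without PBS replicate 1 (adjusted p 0.0549), without PBS replicate 3 with tBHP (0.0597) and with the GC and length trend removed (-0.15), where the change in cNSF-HA cells was -0.28. The fNSF-HA call was lost without fNSF-HA replicate 2 (0.0881) or the tBHP library of fNSF-HA replicate 1 (0.0665), and with the compared groups alone (0.06).

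Of the 4 TFIIH subunits, which open the strands around the lesion, ERCC2, GTF2H1 and GTF2H3 fell in PBS cells and ERCC3 rose. ERCC2, the helicase XPD, changed by -0.52, -0.37 and -0.71 (SE 0.109) in PBS, cNSF-HA and fNSF-HA cells. ERCC3, the translocase XPB, changed by 0.18, 0.19 and 0.13 (SE 0.057), the last with an adjusted p of 0.0724. Neither call of ERCC3 was kept with the GC and length trend removed (0.068, adjusted p 0.193, and 0.084, adjusted p 0.108). The core subunits GTF2H1 (-0.41, -0.27 and -0.23) and GTF2H3 (-0.42, -0.44 and -0.21) have transcripts of low GC content (39.4% and 39.2%). No call of either was kept in any pre-incubation with the GC and length trend removed. ERCC2, with 60.0% GC, went the other way: its fall grew to -0.81, -0.64 and -0.79. Calls of GTF2H1 were also lost in other alternatives. That in cNSF-HA cells was lost without cNSF-HA replicate 3 (0.0641) or cNSF-HA replicate 1 with tBHP (0.0563). That in fNSF-HA cells was lost without fNSF-HA replicate 1 (0.0536), 2 (0.0991) or 3 (0.168) or the tBHP library of replicate 3 (0.268), with edgeR (0.13), with quantile normalization (0.102) and with the compared groups alone (0.169).

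Among the proteins that verify and cut, XPA fell and ERCC5 rose. XPA read 198, 211 and 174 without tBHP and 85.1, 88.2 and 98.5 with it in PBS cells. With cNSF-HA, XPA read 165, 169 and 173 without tBHP and 103, 108 and 113 with it. With fNSF-HA, XPA read 173, 165 and 183 without tBHP and 108, 112 and 118 with it. The log2 changes were -1.09, -0.64 and -0.62 (SE 0.104, limma adjusted p 1.56e-07, 6.35e-05 and 0.00012), and no library with tBHP reached the lowest without it. ERCC5, the nuclease XPG, which cuts on the 3′ side, read 335, 337 and 348 without tBHP and 500.5, 441 and 594 with it in PBS cells. With cNSF-HA, ERCC5 read 323, 365 and 317 without tBHP and 499, 594 and 568 with it. With fNSF-HA, ERCC5 read 314, 386 and 343 without tBHP and 566, 612 and 542 with it. It rose by 0.58, 0.72 and 0.72 (SE 0.109, limma adjusted p 0.000277, 3.34e-05 and 3.93e-05) without overlap. The value of ERCC5 is uncertain because 19.1% of its exonic bases are shared with BIVM and 63.2% with the readthrough gene BIVM-ERCC5, which was listed at 0. How reads in shared exons were counted is not given in the sources used here.

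ERCC1, the partner of the 5′ nuclease, read 2139.8, 1984 and 2008 without tBHP and 2329.8, 2269 and 2220.0 with it in PBS cells. With cNSF-HA, ERCC1 read 2117, 2104 and 2035 without tBHP and 2508, 2419.8 and 2772 with it. With fNSF-HA, ERCC1 read 2073, 2081 and 2053 without tBHP and 2399, 1811 and 2532 with it. It rose in cNSF-HA cells (0.30, limma adjusted p 0.0129), a call lost without cNSF-HA replicate 3 with tBHP (0.0593) and with the GC and length trend removed (0.096, adjusted p 0.154). It was not called in PBS cells (0.15, 95% interval -0.04 to 0.35) or in fNSF-HA cells (0.10, -0.09 to 0.30), where replicate 2 with tBHP lay below all libraries without it and the change without that library was 0.25 (adjusted p 0.00321). Its nuclease partner ERCC4 had changes of -0.30, -0.38 and -0.11 (SE 0.134) and was called in cNSF-HA cells (adjusted p 0.0238). That call was lost without cNSF-HA replicate 2 (0.064) or 3 (0.0679) or the tBHP library of replicate 3 (0.165) and with edgeR (0.0556), and the change of ERCC4 was 0.017 with the GC and length trend removed. POLH, the polymerase eta that copies past lesions rather than removing them and a known p53 target, read 1008, 987 and 950.3 without tBHP and 1281, 1339 and 1306 with it in PBS cells. With cNSF-HA, POLH read 1002, 1016 and 924 without tBHP and 1261, 1231 and 907 with it. With fNSF-HA, POLH read 1035, 1018 and 966 without tBHP and 1363, 1471 and 1157 with it. It rose in PBS and fNSF-HA cells (0.41 and 0.40, limma adjusted p 0.00343 and 0.00591), whereas in cNSF-HA cells the change was 0.19 (95% interval -0.03 to 0.42), with replicate 3 with tBHP below every library without it. Without that library the change was 0.35 (adjusted p 0.00328), and POLH was also called in cNSF-HA cells with edgeR (0.27, adjusted p 0.0376) and with the GC and length trend removed (0.21, adjusted p 0.0225).

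**Figure D2:**
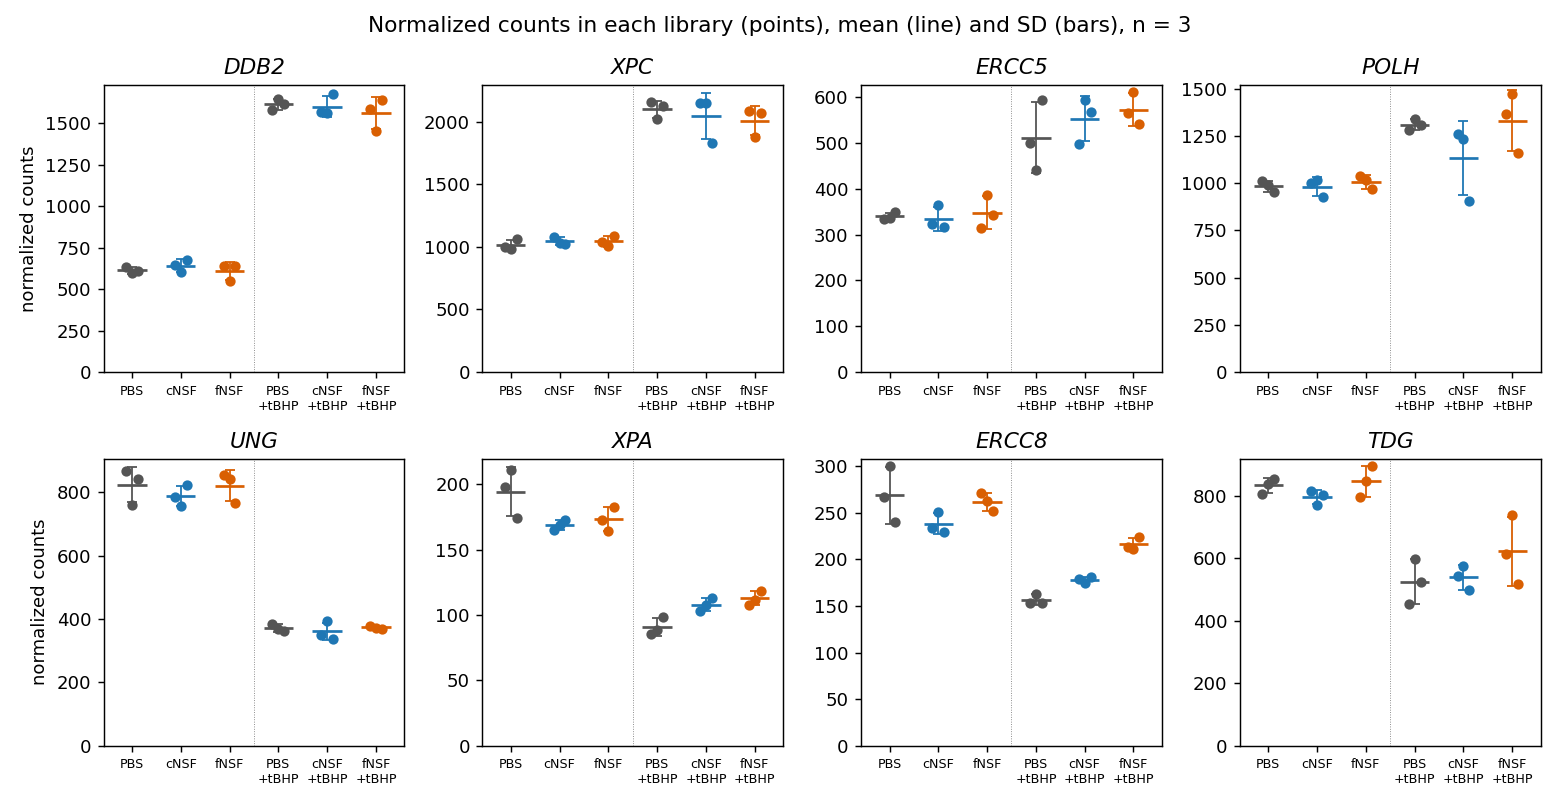
Normalized counts (y axis, linear from 0) of 8 repair genes in the 18 libraries by group; points are libraries, lines are means and bars are SD of 3 libraries. DDB2, XPC and ERCC5 lie higher and UNG, XPA, ERCC8 and TDG lower in all libraries with tBHP than in those of the same pre-incubation without it; for POLH, 1 library of cNSF-HA cells with tBHP lies at 907, below the 3 without.

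In base excision repair, 3 of the 11 glycosylases fell in all pre-incubations, as did 17.9% of all genes. UNG, which removes uracil, read 867, 761 and 842 without tBHP and 386, 369 and 362 with it in PBS cells. With cNSF-HA, UNG read 786, 758 and 822 without tBHP and 351, 393 and 338 with it. With fNSF-HA, UNG read 853, 844 and 765 without tBHP and 378, 372 and 370.1 with it. The mean in PBS cells went from 824 ± 55.3 (SD, n = 3) to 372 ± 12.2 (SD, n = 3), and the log2 changes were -1.14, -1.13 and -1.13 (SE 0.0793, limma adjusted p 3.01e-09, 3.98e-09 and 3.59e-09). The highest library with tBHP was at 393 and the lowest without it at 758. TDG, which removes thymine from mispairs with guanine as well as oxidized forms of methylcytosine, read 806, 837 and 854 without tBHP and 453, 598 and 523 with it in PBS cells. With cNSF-HA, TDG read 813, 770.2 and 800.2 without tBHP and 543, 574 and 497 with it. With fNSF-HA, TDG read 794, 845 and 895 without tBHP and 612, 737 and 516 with it. It fell by 0.67, 0.56 and 0.46 on the log2 scale (SE 0.114, limma adjusted p 8.97e-05, 0.000512 and 0.00356), with no overlap in any pre-incubation. TDG was still called in each with the GC and length trend removed, at -0.29, -0.23 and -0.28. NEIL3, which acts on single-stranded and crosslinked DNA, read 427, 477 and 426 without tBHP and 225, 322 and 324 with it in PBS cells. With cNSF-HA, NEIL3 read 426, 455 and 417 without tBHP and 258, 262 and 247 with it. With fNSF-HA, NEIL3 read 429, 451 and 428 without tBHP and 331, 354 and 277 with it. The log2 changes of NEIL3 were -0.63, -0.75 and -0.45 (SE 0.122, limma adjusted p 0.000359, 6.39e-05 and 0.00659), and each tBHP library lay below the libraries of its pre-incubation without tBHP.

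OGG1, MUTYH and NUDT1 keep oxidized guanine out of the genome, and differences between their changes were not tested. OGG1, the glycosylase for 8-oxoguanine, read 459, 437 and 492 without tBHP and 509.5, 403 and 474 with it in PBS cells. With cNSF-HA, OGG1 read 458, 453 and 457 without tBHP and 515, 471 and 464 with it. With fNSF-HA, OGG1 read 471, 452 and 457 without tBHP and 467, 341 and 418 with it. It was called in none of them, with 95% intervals of the log2 change of -0.23 to 0.22, -0.14 to 0.30 and -0.40 to 0.04. OGG1 was called down with the GC and length trend removed in PBS (-0.22, adjusted p 0.0312) and fNSF-HA cells (-0.34, adjusted p 0.00155). MUTYH, which removes adenine placed opposite 8-oxoguanine, read 231, 195 and 203 without tBHP and 293, 292 and 279 with it in PBS cells. With cNSF-HA, MUTYH read 206, 246 and 227 without tBHP and 297, 284 and 344 with it. With fNSF-HA, MUTYH read 204, 203 and 214 without tBHP and 268, 190.4 and 294 with it. It rose in PBS and cNSF-HA cells (0.46 and 0.44, SE 0.132, limma adjusted p 0.00763 and 0.00981) and was not called in fNSF-HA cells (0.25, 95% interval -0.03 to 0.53), where without replicate 2 with tBHP it was 0.44 (adjusted p 0.00256). The cNSF-HA call was lost without cNSF-HA replicate 3 with tBHP (0.0507), and both MUTYH calls with the GC and length trend removed (0.15 and 0.063). NUDT1 (MTH1), which destroys oxidized guanine nucleotides before they are used, read 463, 443 and 419 without tBHP and 632, 551 and 488 with it in PBS cells. With cNSF-HA, NUDT1 read 472, 478 and 441 without tBHP and 585, 580.3 and 830.5 with it. With fNSF-HA, NUDT1 read 454, 457 and 467 without tBHP and 538, 395 and 602 with it. The change in cNSF-HA cells was called (0.50, limma adjusted p 0.00804), but not without cNSF-HA replicate 3 with tBHP, the highest library (adjusted p 0.061), nor with the GC and length trend removed (0.085). The changes of NUDT1 in PBS and fNSF-HA cells were 0.33 (0.02 to 0.63) and 0.13 (-0.17 to 0.44), neither called. The change of NUDT1 in PBS cells was called with edgeR (adjusted p 0.0314), with quantile normalization (0.0362), with the compared groups alone (0.0167) and without PBS replicate 3 with tBHP (0.0408), and that in fNSF-HA cells was 0.31 without replicate 2 with tBHP (0.0496).

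Of the other 6 glycosylases, 1 was called in PBS (SMUG1), 2 in cNSF-HA (NEIL1 and MBD4) and 1 in fNSF-HA cells (MBD4), against 51.1%, 50.8% and 41.9% of all genes. NEIL1 and NEIL2, for oxidized pyrimidines, changed in PBS, cNSF-HA and fNSF-HA cells by 0.60, 0.74 and 0.40 (SE 0.288) and by -0.15, -0.03 and -0.14 (SE 0.0958). NEIL1 was called in cNSF-HA cells (adjusted p 0.0394). That call was lost without cNSF-HA replicate 1 or 2, without any of the 3 cNSF-HA libraries with tBHP (0.0713 to 0.132), with DESeq2 (0.0929) and with the GC and length trend removed (0.208). NTHL1, for the same lesions, had changes of -0.42, -0.13 and -0.54 (SE 0.213) and was not called. NTHL1 was called down in each pre-incubation with the GC and length trend removed (-0.79, -0.62 and -0.65, adjusted p 9.23e-07, 2.8e-05 and 1.43e-05), as was NEIL2 (-0.37, -0.26 and -0.28, adjusted p 0.000417, 0.00816 and 0.00521). MPG, for alkylated purines, had changes of 0.31, 0.43 and -0.06 (SE 0.209) and was not called. Its alternatives went both ways: with the compared groups alone MPG was called up in PBS and cNSF-HA cells (adjusted p 0.0123 and 0.00828), and with the GC and length trend removed down in fNSF-HA cells (-0.18, adjusted p 0.0447). SMUG1, another uracil glycosylase, rose in PBS cells (0.25, limma adjusted p 0.0423), a call lost without PBS replicate 2 (0.114) or 3 (0.111), without the tBHP libraries of PBS replicate 1 (0.193) or 2 (0.0573), and with the GC and length trend removed (0.038). MBD4, for thymine in mispairs at CpG sites, rose in cNSF-HA and fNSF-HA cells (0.26 and 0.34, SE 0.0798, limma adjusted p 0.0119 and 0.00223) and had a change of 0.19 in PBS cells (adjusted p 0.0539). The cNSF-HA call of MBD4 was lost without cNSF-HA replicate 1 (0.0554). MBD4 was called up in each pre-incubation with the GC and length trend removed (0.40, 0.41 and 0.39).

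Of the 2 AP endonucleases and the 6 genes of gap filling, ligation and the strand break response, 3 were called in PBS, 4 in cNSF-HA and 2 in fNSF-HA cells, against 51.1%, 50.8% and 41.9% of all genes tested. APEX1, the main AP endonuclease, read 3552, 3612 and 3383 without tBHP and 3652, 3557 and 3757 with it in PBS cells. With cNSF-HA, APEX1 read 3668, 3651 and 3504 without tBHP and 3725, 3869.6 and 4232 with it. With fNSF-HA, APEX1 read 3726, 3602 and 3447 without tBHP and 3756, 3434 and 3806 with it. The libraries with and without tBHP overlapped in PBS and fNSF-HA cells, and the 95% intervals of the log2 change were -0.08 to 0.19, -0.01 to 0.26 and -0.10 to 0.16. APEX1 was called up in cNSF-HA cells with edgeR (0.19, adjusted p 0.021) and down in fNSF-HA cells with the GC and length trend removed (-0.13, adjusted p 0.0044). Its relative APEX2 had changes of 0.23, 0.25 and 0.11 (SE 0.09) and was called in PBS and cNSF-HA cells. The PBS call of APEX2 was lost without PBS replicate 2 or 3 or the tBHP library of PBS replicate 1 or 2 (adjusted p 0.0938 to 0.121). The cNSF-HA call was lost without cNSF-HA replicate 1 or 3 or the tBHP library of replicate 3 (0.0641 to 0.0846), and both with the GC and length trend removed. POLB, the gap-filling polymerase, read 328, 341 and 316 without tBHP and 353, 359 and 419 with it in PBS cells. With cNSF-HA, POLB read 322, 336 and 322 without tBHP and 329, 297 and 427 with it. With fNSF-HA, POLB read 333, 340.0 and 333 without tBHP and 364, 405 and 343 with it. It was called in none, and the 95% intervals were -0.04 to 0.43, -0.15 to 0.32 and -0.10 to 0.38. POLB was called up in PBS cells with the GC and length trend removed (0.31, adjusted p 0.00227). XRCC1, the scaffold that holds the polymerase and ligase, read 643, 581 and 574 without tBHP and 793, 642 and 688 with it in PBS cells. With cNSF-HA, XRCC1 read 573, 598 and 567 without tBHP and 715, 676 and 794 with it. With fNSF-HA, XRCC1 read 585, 539 and 572 without tBHP and 629.6, 464 and 733 with it. It was called in cNSF-HA cells (0.33, limma adjusted p 0.0376), with changes of 0.24 (-0.03 to 0.50) in PBS and 0.08 (-0.18 to 0.35) in fNSF-HA cells, the last being 0.27 (adjusted p 0.0292) without replicate 2 with tBHP. Replicate 2 of fNSF-HA with tBHP was the lowest of the 18 libraries for XRCC1, as it was for OGG1, MUTYH and NUDT1. The call of XRCC1 was lost without any of the cNSF-HA libraries without tBHP or those of replicates 1 and 3 with it (0.0608 to 0.137), and with the GC and length trend removed (0.047). Its ligase LIG3 had changes of -0.11, -0.09 and -0.06 (SE 0.0688), none called, and was called down in PBS cells with the GC and length trend removed (-0.15, adjusted p 0.0317).

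Of the genes that answer to strand breaks, PARP1 fell and APTX rose in each pre-incubation. PARP1, which makes poly(ADP-ribose) at breaks, read 4707, 4546 and 4544 without tBHP and 3625, 3785 and 3884 with it in PBS cells. With cNSF-HA, PARP1 read 4902, 4618 and 4577 without tBHP and 3656, 3844 and 3529 with it. With fNSF-HA, PARP1 read 4955, 4801 and 4778 without tBHP and 3769, 3513 and 3574 with it. PARP1 fell in all 3, with no overlap (-0.29, -0.35 and -0.42, SE 0.0565, limma adjusted p 0.000369, 5.49e-05 and 1.06e-05). APTX, which clears abortive ligation ends, rose by 0.39, 0.35 and 0.33 (SE 0.0821, limma adjusted p 0.000733, 0.00183 and 0.0034), and PARP2 was called in no group, with intervals of -0.17 to 0.16, -0.03 to 0.31 and -0.13 to 0.20. PARP2 was called up in cNSF-HA cells with the GC and length trend removed (0.15, adjusted p 0.0258).

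The tBHP response could be compared between pre-incubations because the 3 responses share no library. In cNSF-HA cells 7 base excision repair genes rose and 4 fell, and 5 nucleotide excision repair genes rose and 8 fell, against 50.8% of all genes called (24.0% up and 26.8% down). The 11 called base excision repair genes numbered 7 without cNSF-HA replicate 1 (45.5% of all genes called) and 6 without its replicate 3 with tBHP (45.3%). In fNSF-HA cells 2 base excision repair genes rose and 4 fell, and 4 nucleotide excision repair genes rose and 6 fell, against 41.9% of all genes (19.2% up and 22.7% down). The 6 called base excision repair genes numbered 10 without fNSF-HA replicate 2 with tBHP (50.6% of all genes). With the GC and length trend removed the numbers were 9 and 7 in cNSF-HA cells (57.1% of all genes) and 11 and 8 in fNSF-HA cells (57.0%). The same 14 genes were called in one direction in all 3 pre-incubations: APTX, DDB2, XPC and ERCC5 rose and UNG, TDG, NEIL3, PARP1, XPA, ERCC8, ERCC2, RAD23B, GTF2H1 and ERCC6 fell. These were 9 of the 16 nucleotide and 5 of the 20 base excision repair genes, against 32.4% of all genes tested. With the GC and length trend removed the number was again 14 (44.3% of all genes), of which 10 were shared. ERCC6, ERCC8, GTF2H1 and RAD23B left and MBD4, NEIL2, NTHL1 and POLH entered. No repair gene was called up in one pre-incubation and down in another (0.00731% of all genes were), and 32 of the 36 had the same sign in all 3, as did 76.3% of all genes. The 9 genes called in none (35.6% of all genes) were APEX1, LIG3, MPG, NEIL2, NTHL1, OGG1, PARP2, POLB and CETN2, the last being the one from nucleotide excision repair. All but CETN2, 8 of these 9, were called in at least 1 pre-incubation with the GC and length trend removed, as were 52.5% of all genes called in none before.

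Of 34 further excision repair genes (subunits of TFIIH, replication protein A, replication factor C, polymerases delta and epsilon, end processing and ubiquitin ligase partners), 33 were tested. In PBS cells 6 of them rose and 12 fell (median -0.11 on the log2 scale), in cNSF-HA cells 6 rose and 9 fell, and in fNSF-HA cells 4 rose and 9 fell. These 18, 15 and 13 genes of 33 stand beside 51.1%, 50.8% and 41.9% of all genes called, and with the GC and length trend removed they were 23, 24 and 24, beside 58.0%, 57.1% and 57.0%. CUL4B, a scaffold of the ubiquitin ligase that holds DDB1 and DDB2, changed by -1.13, -1.06 and -0.86 in PBS, cNSF-HA and fNSF-HA cells. GTF2H2, a TFIIH subunit with near-identical copies whose value is uncertain, changed by -1.08, -0.70 and -0.72. RFC3, a clamp loader subunit, changed by -0.69, -0.50 and -0.62. These were the 3 largest changes of the list in PBS cells, and all fell in the 3 pre-incubations.

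The next question was whether HA changed these genes before or after tBHP. Without tBHP, none of the 36 genes was called in cNSF-HA or fNSF-HA cells against PBS or against each other (0.0% of all genes with limma, and 0.0% with edgeR in each comparison). At an unadjusted p under 0.05 there were 0, 0 and 1 of the 36, against 0.921%, 0.796% and 1.51% of all genes. All groups shared 1 estimate of the spread, although the median SD was 0.0761 without tBHP and 0.206 with it. These tests were therefore insensitive to HA effects without tBHP, and a missing call does not show that there was none. The log2 differences ran from -0.20 to 0.11 for cNSF-HA against PBS, from -0.16 to 0.09 for fNSF-HA against PBS and from -0.15 to 0.18 for cNSF-HA against fNSF-HA. The gene with the smallest p between the HA groups was RAD23B, at 5354, 5240.0 and 5473 in cNSF-HA and 6006, 5992 and 5772 in fNSF-HA cells, a difference of -0.15 (95% interval -0.28 to -0.01, limma adjusted p 1.00) between groups that did not overlap (25.0% of all genes did not). RAD23B was the 1 member called when only the 2 groups compared were fitted (adjusted p 0.00176), with 7.16% of all genes. ERCC8 and SMUG1 followed, with -0.13 (-0.33 to 0.06) and 0.12 (-0.09 to 0.32).

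After tBHP, again no repair gene was called in the 3 comparisons between pre-incubations, where 0.0% of all genes were called for cNSF-HA against PBS, 0.139% for fNSF-HA against PBS and 0.0% for cNSF-HA against fNSF-HA. DESeq2 on the recovered reads called 0 of 28, 1 (ERCC8) of 35 and 1 (ERCC2) of 34 members to which it gave an adjusted p, against 0.183%, 3.96% and 10.3% of the 7668, 11325 and 9497 genes with one. At an unadjusted p under 0.05 there were 3, 7 and 13 of the 36, against 8.64%, 22.7% and 32.2% of all genes. Between cNSF-HA and fNSF-HA cells the smallest p were those of ERCC2 (0.35, SE 0.109), ERCC8 (-0.28, SE 0.0925) and MPG (0.62, SE 0.209), each with a limma adjusted p of 0.0981. ERCC2 read 1531, 1479 and 1671 in cNSF-HA cells with tBHP and 1219.8, 975 and 1539 in fNSF-HA cells with tBHP, and MPG read 915, 985 and 1255 and 707, 419 and 1043. In both genes fNSF-HA replicate 2 was the lowest library and fNSF-HA replicate 3 overlapped the cNSF-HA libraries. ERCC8 did not overlap between these groups. Between fNSF-HA and PBS cells with tBHP its difference was 0.46 (95% interval 0.27 to 0.66, limma adjusted p 0.0524), the smallest adjusted p of any repair gene between pre-incubations. Removing the GC and length trend made this difference 0.20 (adjusted p 0.414), and between cNSF-HA and fNSF-HA cells those of ERCC2, MPG and ERCC8 became 0.099, 0.17 and -0.074. For fNSF-HA against PBS with tBHP, ERCC8 was called with quantile normalization (limma adjusted p 0.0484, with 0.168% of all genes). The replicate block (0.446%) and a minimum mean of 50 (0.266%) also called 1 member there.

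These differences followed GC content. In cNSF-HA against fNSF-HA cells with tBHP, 17 of the 18 repair genes with at least 50% GC lay above 0 and 15 of the 18 with less lay below, with medians of 0.17 and -0.10. Base excision repair genes were 12 of the first 18 and 8 of the second. By library, fNSF-HA replicate 2, which had the lowest representation of GC-rich transcripts, had a median deviation of -0.10 for base and 0.17 for nucleotide excision repair genes. In cNSF-HA replicate 3 these medians were 0.11 and -0.036. The decile of all genes with the highest GC lay at -0.80 and 0.34 in these 2 libraries. The pattern was therefore not shown to be particular to repair genes, and counts above and below 0 over all genes were not made. With the GC and length trend removed, the medians of the high and low GC genes were 0.039 and 0.047 and none of the 36 was called in the 3 comparisons between pre-incubations (0.00798%, 0.335% and 0.0399% of all genes). That step takes out any difference that follows GC content by construction, so this outcome does not test where the differences come from. Leaving out fNSF-HA replicate 3, whose GC-rich genes lay at 0.18 against -0.20 and -0.80 in the other 2 fNSF-HA libraries, gave 14 called members between the HA groups (40.8% of all genes). For fNSF-HA against PBS it gave 10 (29.4% of all genes). Leaving out fNSF-HA replicate 2 gave none of the 36 in either (0.0% of all genes).

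**Figure D3:**
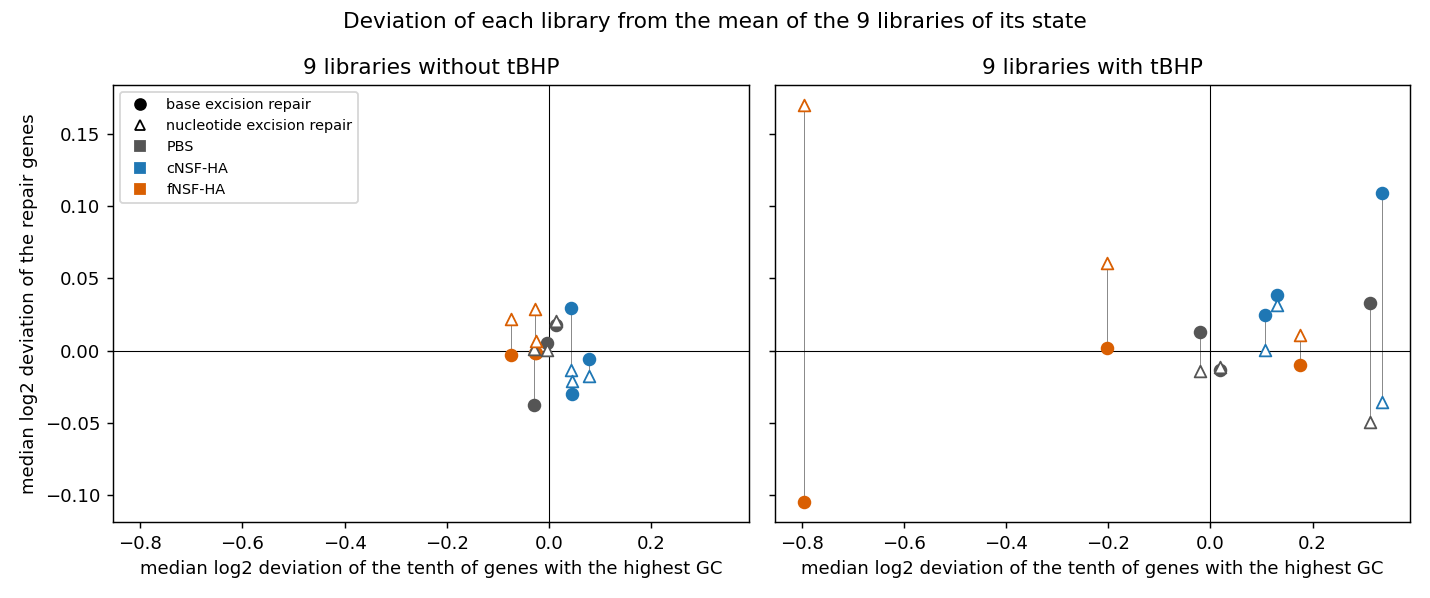
Median log2 deviation of the 20 base (filled circles) and the 16 nucleotide excision repair genes (open triangles) in each library (y axis) against that of the decile of genes with the highest GC (x axis), from the mean of the 9 libraries without tBHP (left) or with it (right). The library at the far left, fNSF-HA replicate 2 with tBHP at -0.80, has the lowest base (-0.10) and the highest nucleotide excision repair median (0.17).

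**Figure D4:**
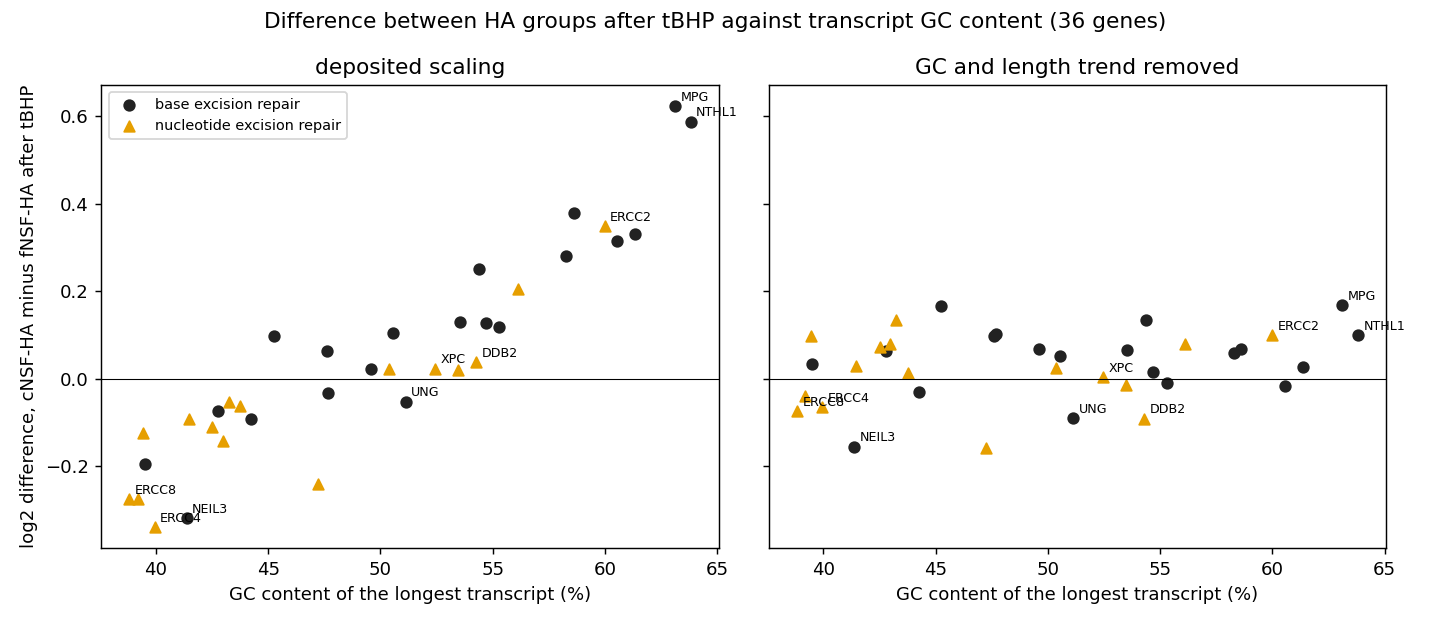
Log2 difference between cNSF-HA and fNSF-HA cells with tBHP (y axis) of the 36 repair genes against the GC content of the longest transcript in percent (x axis), with the deposited scaling (left) and with the GC and length trend of each library removed (right). The differences run from -0.34 to 0.62 and rise with GC on the left, and the medians of high and low GC genes are 0.039 and 0.047 on the right. The step on the right removes a trend with GC by construction.

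Whether HA changed the response to tBHP was tested as the difference between responses. None of the 36 genes was called in any of the 3 interaction tests (0.0% of all genes with limma, and no gene with edgeR or DESeq2), and 2, 2 and 1 members had an unadjusted p under 0.05, against 4.06%, 6.88% and 3.89% of all genes. These were XPA and ERCC8, each in 2 tests, and ERCC2. The fall of XPA was smaller by 0.45 (95% interval 0.14 to 0.76, limma adjusted p 0.999) in cNSF-HA and by 0.47 (0.16 to 0.78, adjusted p 0.667) in fNSF-HA cells than in PBS cells. For ERCC8 the differences were 0.36 (0.08 to 0.63, adjusted p 0.999) and 0.50 (0.22 to 0.77, adjusted p 0.667), and both comparisons use the same PBS libraries. Without the GC and length trend they were 0.34 and 0.33 for XPA and 0.23 and 0.25 for ERCC8. In both genes the mean of the PBS libraries was the highest of the 3 groups without tBHP and the lowest with it, 194 ± 18.8 (SD, n = 3) and 90.6 ± 7.0 (SD, n = 3) for XPA and 269 ± 30.5 (SD, n = 3) and 157 ± 5.84 (SD, n = 3) for ERCC8. ERCC2 was the gene with the smallest p between the responses of cNSF-HA and fNSF-HA cells (0.34, 0.02 to 0.67, adjusted p 0.71), a difference of 0.15 without the GC and length trend. For DDB2, XPC and UNG, the intervals of the cNSF-HA minus fNSF-HA difference between responses were -0.27 to 0.19, -0.20 to 0.24 and -0.23 to 0.24.

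For 8 members, reads could not be assigned with certainty, because at least 10% of their exonic bases are shared with another expressed gene. ERCC5 shares them with BIVM on its own strand. The other 7 share them with a gene on the opposite strand, which the library kit does not tell apart: ERCC1 (with CD3EAP), LIG3 (RFFL), MPG (NPRL3), MUTYH (TOE1), NEIL1 (MAN2C1), NTHL1 (TSC2) and OGG1 (CAMK1). XPC and ERCC4 also share 23.8% and 25.7% of their exonic bases with AC093495.1 and AC010401.1 on the opposite strand. No value was given for AC093495.1 or AC010401.1, so their expression is unknown and the reads of XPC and ERCC4 are uncertain too.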

How the data were processed

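RNA was read as single-end reads of 100 nt from TruSeq RNA V2 libraries, which do not mark strand, 3 replicates in each of 6 groups. The authors, per the labels, trimmed reads (Trimmomatic 0.32), aligned them to GRCh38.p7 (STAR 2.5.2b) and counted them per gene (featureCounts of Subread 1.5.0-p3); the annotation is not given in the sources used here. They deposited a signal, read counts per gene divided by DESeq2 size factors. The deposited table also holds the authors' own p-value, q-value and a rank score of a comparison, which were not used.

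The test was limma 3.58.1 (R 4.3.3) on log2(value + 1) for the 13686 of 56269 genes whose mean reached 10, with an intensity trend, 1 coefficient per group over all groups and Benjamini-Hochberg adjustment at 0.05, checked on simulated data. The simulated libraries shared the same level of spread and had no trend with GC content, unlike these data. That check therefore does not cover either feature. All values gave whole reads within 0.001 once the size factor was undone (100.0%), and edgeR 4.0.16 and DESeq2 1.42.0 were run on these reads. Limma was the main test because the deposited values are normalized. The other alternatives were pseudocounts of 0.1 and 5, no filter, a minimum mean of 50, median rescaling, quantile normalization, the compared groups alone, a replicate block and leaving out each library. Removing the trend with GC content and length (natural splines of 5 degrees of freedom, GENCODE 29, 12528 genes) was added after seeing the data. The members and gene lists were chosen with earlier results of these data known. Library values are given for the 8 called members with the largest changes in PBS cells and for 10 members chosen for their role, and the 3 members with the smallest p between the HA groups in each state are named; motifs were chosen after the values were seen. Some genes of the list of other repair routes are not reported here. Intervals and depths cover these libraries only.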

Additional observations from a re-analysis of the deposited data

How the results depend on the processing

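Of 61 called changes of single genes, 37 kept their direction and their call in every alternative run and 24 lost the call in at least one, 3 of them by turning with the GC and length trend removed: DDB1 in PBS cells (-0.023), GTF2H1 in cNSF-HA cells (0.055) and ERCC4 in cNSF-HA cells (0.017). Of 6 differences between the HA groups that were not called, 3 became called, RAD23B with the compared groups alone, ERCC2 with DESeq2 or without fNSF-HA replicate 3 with tBHP, and MPG without that library. Removing the GC and length trend takes out any change that follows either by its own construction, and added 15 tBHP calls of members. With it, the nucleotide excision repair genes called after tBHP numbered 8 in PBS and 7 in cNSF-HA cells, and the base excision repair genes called in fNSF-HA cells 11. Leaving out 1 library gave 6 to 9 base and 11 to 13 nucleotide excision repair genes called in PBS cells, 6 to 10 and 11 to 13 in cNSF-HA cells, and 6 to 10 and 7 to 13 in fNSF-HA cells, where 43.7% to 49.2%, 43.3% to 48.0% and 34.9% to 50.6% of all genes were called. For fNSF-HA against PBS after tBHP, leaving out 1 library gave 0 to 10 members called (10 without fNSF-HA replicate 3 with tBHP), and the count was 1 with a minimum mean of 50 (0.266% of all genes), with quantile normalization (0.168%), with DESeq2 (3.96%) and with the replicate block (0.446%). For cNSF-HA against fNSF-HA after tBHP, leaving out 1 library gave 0 to 14 members called (14 without fNSF-HA replicate 3 with tBHP), and DESeq2 gave 1 (10.3%). For cNSF-HA against fNSF-HA without tBHP, fitting the compared groups alone gave 1. Of 47 tBHP changes of members that were not called, 32 were called in at least one alternative, 9 of them with the GC and length trend removed and in no other. EdgeR called APEX1, DDB1, PARP2 and POLH in cNSF-HA, MBD4, NUDT1 and POLB in PBS and ERCC3 in fNSF-HA cells. The compared groups alone called ERCC1, ERCC4, MPG, NTHL1, NUDT1 and XRCC1 in PBS and MPG in cNSF-HA cells. Quantile normalization called MBD4 and NUDT1 in PBS and ERCC3 in fNSF-HA cells, DESeq2 the last, and a minimum mean of 50 MBD4 in PBS and NTHL1 in fNSF-HA cells. In fNSF-HA cells, leaving out replicate 2 with tBHP called APEX2, ERCC1, ERCC3, GTF2H3, MUTYH, NUDT1 and XRCC1, replicate 3 with tBHP NTHL1, and replicate 2 without it NEIL1. Leaving out replicate 3 with tBHP called CETN2 and NUDT1 in PBS and DDB1 and POLH in cNSF-HA cells, and replicate 1 with tBHP NTHL1 in PBS cells. With no filter on low values, the calls of APEX2, DDB1 and SMUG1 in PBS, of APEX2, NEIL1 and XRCC1 in cNSF-HA and of ERCC8 and GTF2H1 in fNSF-HA cells were lost. Where no construction is named, the cause was not tested.

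Replicate numbers were not taken as pairs, since same-numbered libraries did not deviate together throughout (correlations of -0.119 to 0.333 over 9 comparisons). Some did after tBHP, such as replicate 2 of fNSF-HA and of PBS cells (0.333). Differently numbered libraries reached 0.419, for fNSF-HA replicate 3 and PBS replicate 1 with tBHP. The replicate block lost the calls of NEIL1 in cNSF-HA cells (adjusted p 0.0515) and GTF2H1 in fNSF-HA cells (0.0502) and added that of NTHL1 in fNSF-HA cells (0.0492). It changed no other call of a tBHP response of the 36 genes. With 3 libraries a group, changes under the intervals given could not be seen.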

Other observations

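Of 9 genes of mismatch repair and direct reversal, a list written after other values of these data had been seen, 1 rose and 4 fell in PBS cells, 2 and 3 with cNSF-HA, and 1 and 3 with fNSF-HA (limma adjusted p under 0.05), against 51.1%, 50.8% and 41.9% of all genes tested called in either direction. MSH6, a mismatch recognition protein, changed by -1.03 on the log2 scale in PBS, by -0.88 in cNSF-HA and by -0.88 in fNSF-HA cells. PMS1, a MutL homologue, changed by -1.08, -1.07 and -1.02, and MSH3, which also recognizes mismatches, by -0.52, -0.65 and -0.41. All 3 fell in the 3 pre-incubations. ALKBH3, which removes alkyl groups from bases directly, rose by 0.57, 0.56 and 0.33.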
